A study of Bos grunniens and Bos grunniens x Bos taurus with 6 samples.

Results

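The nuclear genes that encode the machinery of oxidative phosphorylation were followed across cell classes, ages and a hybrid in single-cell RNA libraries of yak testis. Genes were taken by symbol (the NDUFA, NDUFB, NDUFC, NDUFS and NDUFV families, SDHA to SDHD, the UQCR genes, CYC1, COX4 to COX8 and the ATP5 genes), with a nuclear yak gene identifier and at least 20 UMIs over the 6 libraries. This gave 46 of the 26961 features, and all 46 symbols that met the pattern passed the UMI minimum. COX6A2 lay just inside it with 20 UMIs and NDUFA4L2 came next with 49 UMIs. The members were 20 subunits of complex I, 6 genes whose symbols share the NDUFA prefix but which name assembly factors of complex I (NDUFAF), 2 subunits of complex II, 5 of complex III, 5 of complex IV, NDUFA4L2 of the NDUFA4 family, and 7 genes of complex V. Further subunits carry no symbol in the files and were not analysed here. No sequence is printed, since none was at hand.

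Oxidative phosphorylation couples the transfer of electrons from NADH and succinate to oxygen with the synthesis of ATP in the inner mitochondrial membrane. Complexes I, III and IV pump protons, complex II feeds in electrons from the citrate cycle, and complex V uses the proton gradient to make ATP. A small part of the subunits is encoded in mitochondrial DNA and the rest in the nucleus, and several nuclear subunits exist as paralogues, with forms preferred in muscle, in testis or under low oxygen. In the mammalian testis, premeiotic germ cells lie on the blood side of the barrier built by Sertoli cells, while spermatocytes and spermatids behind it are known to depend on lactate from Sertoli cells and on respiration.

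A cattle-yak past sexual maturity gave 1 library; this cross of cattle with yak is known for male sterility. Yaks gave the other 5, namely replicates 1 and 2 at 6 months, labelled prepubertal, replicates 3 and 4 at 18 months, labelled adolescent with a source before sexual maturity, and 1 library at 4 years, past maturity. All tissue was frozen testis, thawed, digested with collagenase IV, hyaluronidase and trypsin and put in culture medium before loading, and no treatment or engineered allele is labelled. A cell line tag reads "Germ cell", yet the cells held many somatic classes. Whether replicates are separate animals is not labelled, and the spread behind each p-value may be technical.

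The libraries held 5104 to 8946 barcodes and 9575446 to 24762829 UMIs, and 3672 to 7458 cells were kept per library. Pairs of libraries shared 5 to 16 cell barcodes. Of barcodes with enough genes, 14.1% were over the limit on mitochondrial UMIs in the cattle-yak, 2.3% and 3.56% at 6 months, 38.0% and 20.3% at 18 months, and 17.9% at 4 years. Cells were assigned to classes by markers that include no member, and counts were summed per library and class. The gates held 30 spermatogonium-gated cells in the cattle-yak, 40 and 28 at 6 months, 227 and 177 at 18 months, and 99 at 4 years. Spermatocyte-gated cells numbered 52 in the cattle-yak, 180 and 109 at 18 months and 446 at 4 years, and 780 spermatid-gated cells came from the 4-year library, against 1 in each 18-month library and 0 in the others. Not every gate was clean. The 6-month spermatogonium-gated sums held the Sertoli gene INHA at 3073 and 6743 CPM, against 99.4 CPM in the cattle-yak, 51.5 and 627 CPM at 18 months and 5.91 CPM at 4 years. The spermatogonium gene UCHL1 had 1388 and 3983 CPM in the 18-month spermatocyte-gated sums, against 2020 and 3564 CPM in the spermatogonium-gated sums of the same libraries. At 4 years it had 437 CPM in spermatocyte-gated and 3358 CPM in spermatogonium-gated cells. Counts of calls that rest on these sums were also made without them.

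Transcripts of the 46 genes made up a larger share of UMIs in germ cells than in most somatic classes. In spermatogonium-gated cells they took 1.23% of UMIs in the cattle-yak, 1.1% and 1.3% at 6 months, 1.1% and 1.43% at 18 months and 1.34% at 4 years, a mean of 1.25% ± 0.133 (SD, n = 6 libraries). Spermatocyte-gated cells averaged 1.32% ± 0.266 (SD, n = 4), and spermatid-gated cells had 1.15%, with an exact 95% binomial interval of 1.13 to 1.16%. Such intervals cover counting error only. Within each of the 4 younger libraries the spermatogonium-gated share lay above that of every somatic class. In the cattle-yak and at 4 years it lay above 5 of 6 somatic classes, and Sertoli-gated cells were higher.

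Somatic classes differed among themselves. Mural-gated cells (pericytes and smooth muscle) averaged 0.934% ± 0.0983, endothelial-gated cells 0.793% ± 0.0786, stroma-gated cells 0.622% ± 0.121 and lymphocyte-gated cells 0.568% ± 0.0352 (SD, n = 6 each). The lymphocyte-gated values, 0.52 to 0.603%, did not overlap with the mural-gated values, 0.773 to 1.04%. Sertoli-gated cells were split by library, with 1.53% in the cattle-yak, 0.706% and 0.874% at 6 months, 0.62% and 0.817% at 18 months, and 1.5% at 4 years. With a stricter gate only the 4 younger libraries held at least 20 Sertoli-gated cells, at 0.614 to 0.858%. With mitochondrially encoded genes taken out of the total, the shares were higher in every class, 1.32% ± 0.147 in spermatogonium-gated and 0.624% ± 0.037 in lymphocyte-gated cells.

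**Figure D1:**
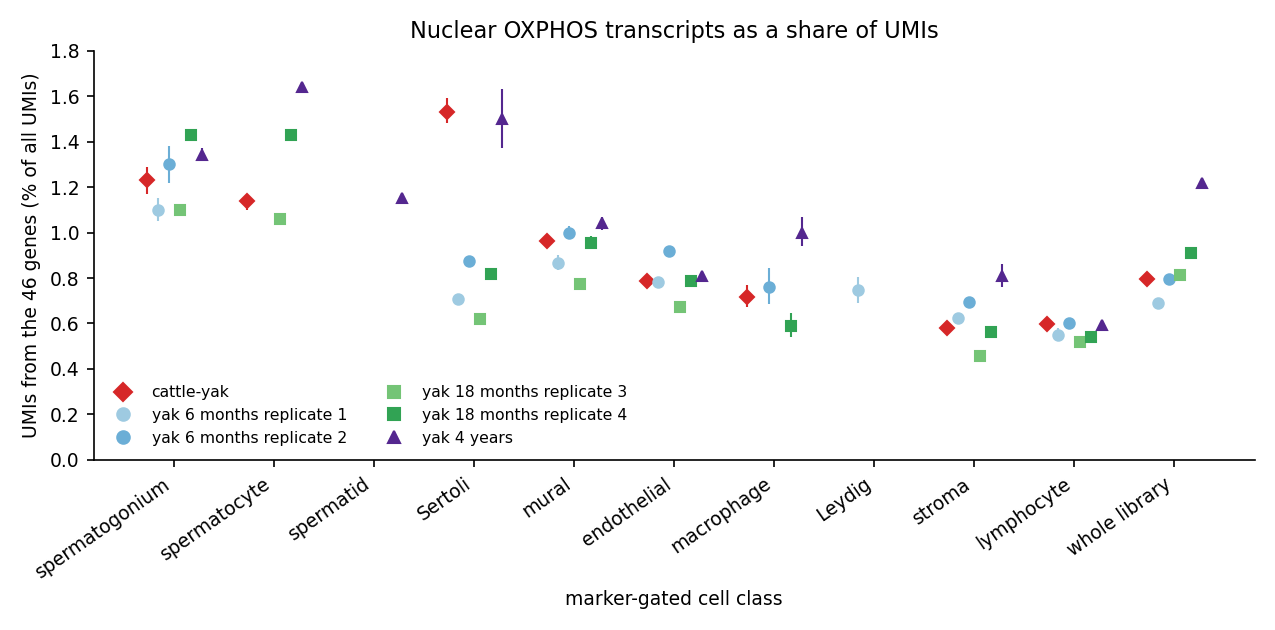
Share of all UMIs (%, vertical axis) that came from the 46 genes, for each marker-gated class with at least 20 cells and for whole libraries (horizontal axis). Points are libraries and bars are exact 95% binomial intervals; spermatogonium-gated points lie between 1.1 and 1.43%, lymphocyte-gated points between 0.52 and 0.603%.

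Spermatogonium-gated cells were compared with the mean of the 6 somatic classes in a single edgeR quasi-likelihood fit with terms for class and library. Its units were the sums per library and class, several from each library, so its p-values do not measure spread over libraries alone. Of 44 tested members 17 were higher and 11 lower at a Benjamini-Hochberg adjusted p below 0.05. Of all 10532 genes tested, 52.7% were called in this comparison, 29.2% higher and 23.5% lower. The median log2 fold change was 0.1 over members and 0.04 over all genes. These values depend on the scaling. With library totals in place of TMM factors, which align the bulk of genes between sums, the median over all genes moved to 0.69 and that over members to 0.74, and 30 members were called higher and 2 lower, against 47.4% and 12.6% of all genes. All log2 fold changes are on the TMM scale unless library totals are named.

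The core of complex I, the subunits that carry its flavin and iron-sulfur clusters, was called in 1 direction only. Of its 6 members 4 were higher and 0 lower, and 6 and 0 with library totals. This division of complex I was made after values were seen. For these counts and those by complex below, 29.2% of all genes were higher and 23.5% lower. With library totals the shares were 47.4% and 12.6%. NDUFV2, an iron-sulfur subunit at the NADH site, had 1086 CPM in the cattle-yak, 898 and 1226 CPM at 6 months, 1048 and 1398 CPM at 18 months and 1084 CPM at 4 years in spermatogonium-gated cells. It had 93.2 to 613 CPM (median 201) in the 34 somatic sums, so the groups did not overlap. Its log2 fold change was 1.74 ± 0.17 (SE; edgeR adjusted p = 4.76e-12). NDUFS3, a core subunit of the matrix arm, lay at 288 to 492 CPM (median 325) against 51.0 to 204 CPM (median 98.6) in somatic sums, again with no overlap, and its log2 fold change was 1.21 ± 0.16 (SE; edgeR adjusted p = 2.72e-08). NDUFS1, the largest iron-sulfur subunit, changed by 1.1 ± 0.25 on the log2 scale and NDUFV1, which binds NADH and the flavin, by 1.06 ± 0.27 (edgeR adjusted p = 0.000232 and 0.000923). NDUFS7, a core subunit near the quinone site, had a log2 fold change of -0.13 and was not called, and it was called higher with library totals, at 0.51.

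The 14 supernumerary subunits of complex I, which surround the core, went both ways on the TMM scale, with 3 higher and 4 lower, while 9 were higher and 0 lower with library totals. NDUFA9, at the junction of the matrix and membrane arms, lay at 164 to 244 CPM (median 233) in spermatogonium-gated cells and at 0 to 147 CPM (median 47.5) in somatic sums, without overlap. Its log2 fold change was 1.41 ± 0.2 (SE; edgeR adjusted p = 1.19e-07). NDUFAB1, the mitochondrial acyl carrier protein, was higher by 0.95 ± 0.14 and NDUFA12 by 0.49 ± 0.19. The NDUFA12 call was kept in 8 of 15 alternative settings. NDUFB11, an accessory subunit of the membrane arm that is X-linked in humans and mice, had a log2 fold change of -0.88 ± 0.19 (SE; edgeR adjusted p = 0.000114) and, with library totals, of -0.23, which was not called. NDUFA6, NDUFB7 and NDUFB10 were lower as well, at -0.68, -0.49 and -0.52 on the TMM scale. Their median CPM, in that order, were 223, 400 and 663 in spermatogonium-gated sums and 200, 379 and 592 in somatic sums. The highest somatic NDUFA6 value, 1142 CPM, came from the 4-year library, against 451 CPM at most in the others. With library totals NDUFA6 was at -0.03, while NDUFB7 and NDUFB10 turned to 0.16 and 0.13, none of them called.

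Assembly factors of complex I were called higher in 4 of 6 cases and lower in 0. NDUFAF6 had the largest fold, 1.61 ± 0.31 (SE, log2; edgeR adjusted p = 2.05e-05), followed by NDUFAF4 at 1.3 ± 0.48, NDUFAF5 at 0.99 ± 0.29 and NDUFAF8 at 0.77 ± 0.29. These are rare transcripts. NDUFAF4 had 0 to 13.1 CPM (median 8.85) in spermatogonium-gated and 0 to 21.8 CPM (median 1.23) in somatic sums, and the groups overlapped.

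**Figure D2:**
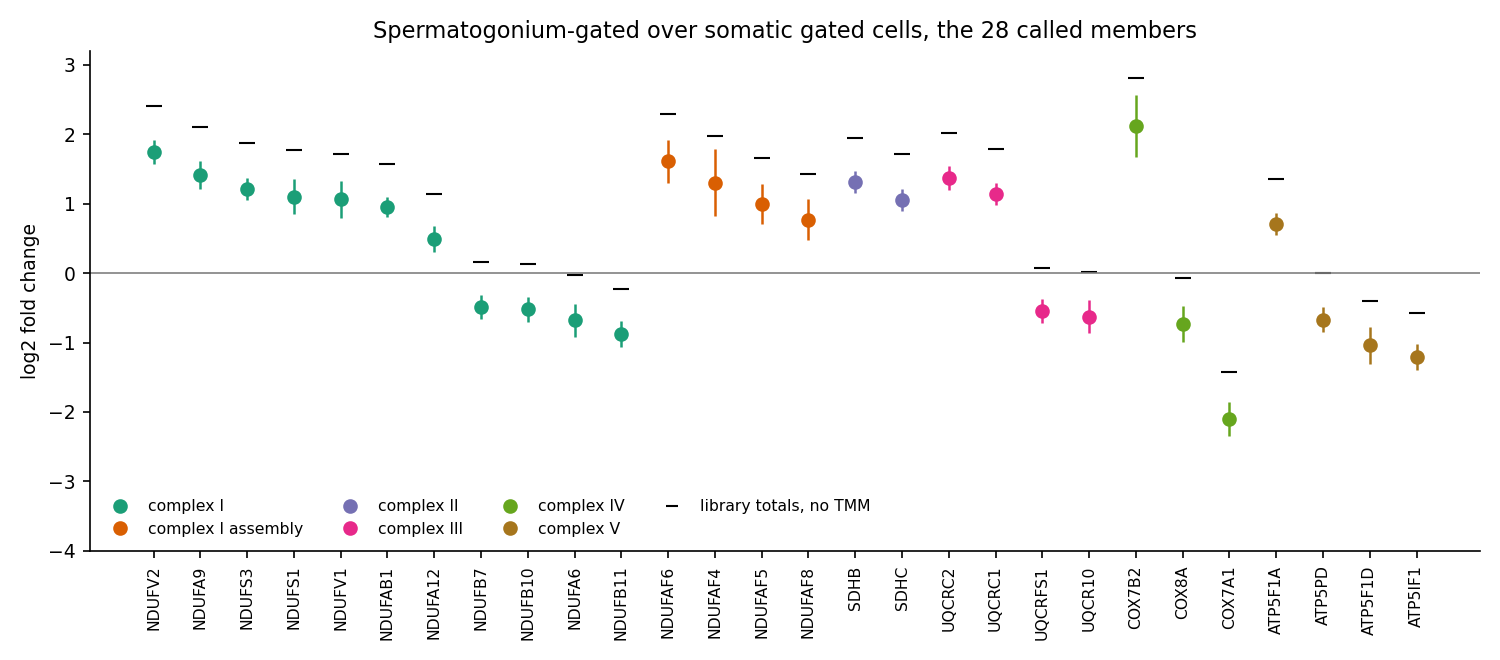
Log2 fold change (vertical axis) of the 28 members called at an adjusted p below 0.05 on the TMM scale, of 44 tested, spermatogonium-gated over somatic gated cells, ordered by complex and fold. Circles with SE bars give the fold on that scale and dashes the fold with library totals; COX7B2 at 2.12 and COX7A1 at -2.1 are the ends of the range.

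Both measured subunits of complex II, which oxidises succinate, were higher. SDHB, the iron-sulfur subunit, had 398 CPM in the cattle-yak, 295 and 478 CPM at 6 months, 480 and 658 CPM at 18 months and 522 CPM at 4 years in spermatogonium-gated cells, against 63.9 to 379 CPM (median 107) in somatic sums. The ranges overlapped through the Sertoli-gated and macrophage-gated sums of 4 years, at 379 and 316 CPM, and within each of the 6 libraries SDHB was higher in the spermatogonium gate than in every somatic class. Its log2 fold change was 1.31 ± 0.16 (SE; edgeR adjusted p = 1.8e-09). SDHC, a membrane anchor of the complex, lay at 301 to 426 CPM (median 373) against 56.0 to 224 CPM (median 112), without overlap, with a log2 fold change of 1.05 ± 0.16 (SE; edgeR adjusted p = 2.43e-07).

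In complex III 2 members were higher and 2 lower, and 3 were higher and 0 lower with library totals. The large core proteins UQCRC1 and UQCRC2, which sit on the matrix side, were higher by 1.14 ± 0.16 and 1.37 ± 0.17 on the log2 scale (edgeR adjusted p = 7.93e-08 and 3.05e-09). UQCRC2 had 321 CPM in the cattle-yak, 367 and 319 CPM at 6 months, 387 and 499 CPM at 18 months and 482 CPM at 4 years in spermatogonium-gated cells, all above the 50.7 to 292 CPM (median 90.3) of the somatic sums. UQCRFS1, the Rieske protein, and UQCR10, a small subunit, were called lower at -0.55 ± 0.17 and -0.63 ± 0.24 on the TMM scale, and stood at 0.07 and 0.01 with library totals, where neither was called. CYC1, the cytochrome c1, was not called on the TMM scale (0.16 ± 0.17) and was called higher with library totals, at 0.81.

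Over all complexes, 6 members (NDUFA9, NDUFS3, NDUFV2, SDHC, UQCRC1 and UQCRC2) had CPM values in the spermatogonium gate above every somatic sum and 0 had values below every one. Of all nuclear genes with at least 20 UMIs in these sums, 1.58% lay above and 0.0202% below.

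Complex IV held the extremes, and both are tissue forms of a small subunit. COX7B2, known as the testis form of COX7B, had 45.9 CPM in the cattle-yak, 59.0 and 0 CPM at 6 months, 72.0 and 74.9 CPM at 18 months and 82.8 CPM at 4 years in spermatogonium-gated cells. The somatic sums had 0 to 237 CPM (median 3.4), and all values above 30 CPM came from the 4-year library. The log2 fold change was 2.12 ± 0.45 (SE; edgeR adjusted p = 9.02e-05), and 2.89 without the 4-year library. COX7A1, the heart and muscle form of COX7A, had 99.4 CPM in the cattle-yak, 118 and 73.6 CPM at 6 months, 28.7 and 52.5 CPM at 18 months and 16.3 CPM at 4 years. Its somatic sums had 22.7 to 392 CPM (median 155), the highest in mural-gated cells, with 374 CPM in the cattle-yak, 392 and 245 CPM at 6 months, 222 and 280 CPM at 18 months and 238 CPM at 4 years. Lymphocyte-gated cells, at 22.7 to 68.9 CPM, overlapped with the spermatogonium gate. The log2 fold change was -2.1 ± 0.25 (SE; edgeR adjusted p = 1.03e-09).

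The other tissue forms of complex IV and its relatives were rare. COX6A2, the muscle form of COX6A, was at or near 0 in spermatogonium-gated cells (0.316 CPM at most) and reached 17.1 CPM in lymphocyte-gated cells of a 6-month library, and it was not tested. NDUFA4L2, a relative of the complex IV subunit NDUFA4 known to be induced by low oxygen and to mark pericytes, was at 0 in all 6 spermatogonium-gated sums. In mural-gated cells it had 6.06 CPM in the cattle-yak, 6.53 and 8.27 CPM at 6 months, 1.38 and 1.98 CPM at 18 months and 8.96 CPM at 4 years. Outside that class it was above 0 in 3 somatic sums, the highest at 3.78 CPM. COX7A2L, known to help complexes III and IV join, was not called on the TMM scale (0.39 ± 0.36) and was called higher with library totals, at 1.09. COX8A, the broadly expressed form of COX8, was lower at -0.73 ± 0.26 (SE, log2; edgeR adjusted p = 0.0179) on the TMM scale and at -0.07 with library totals, where it was not called.

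**Figure D3:**
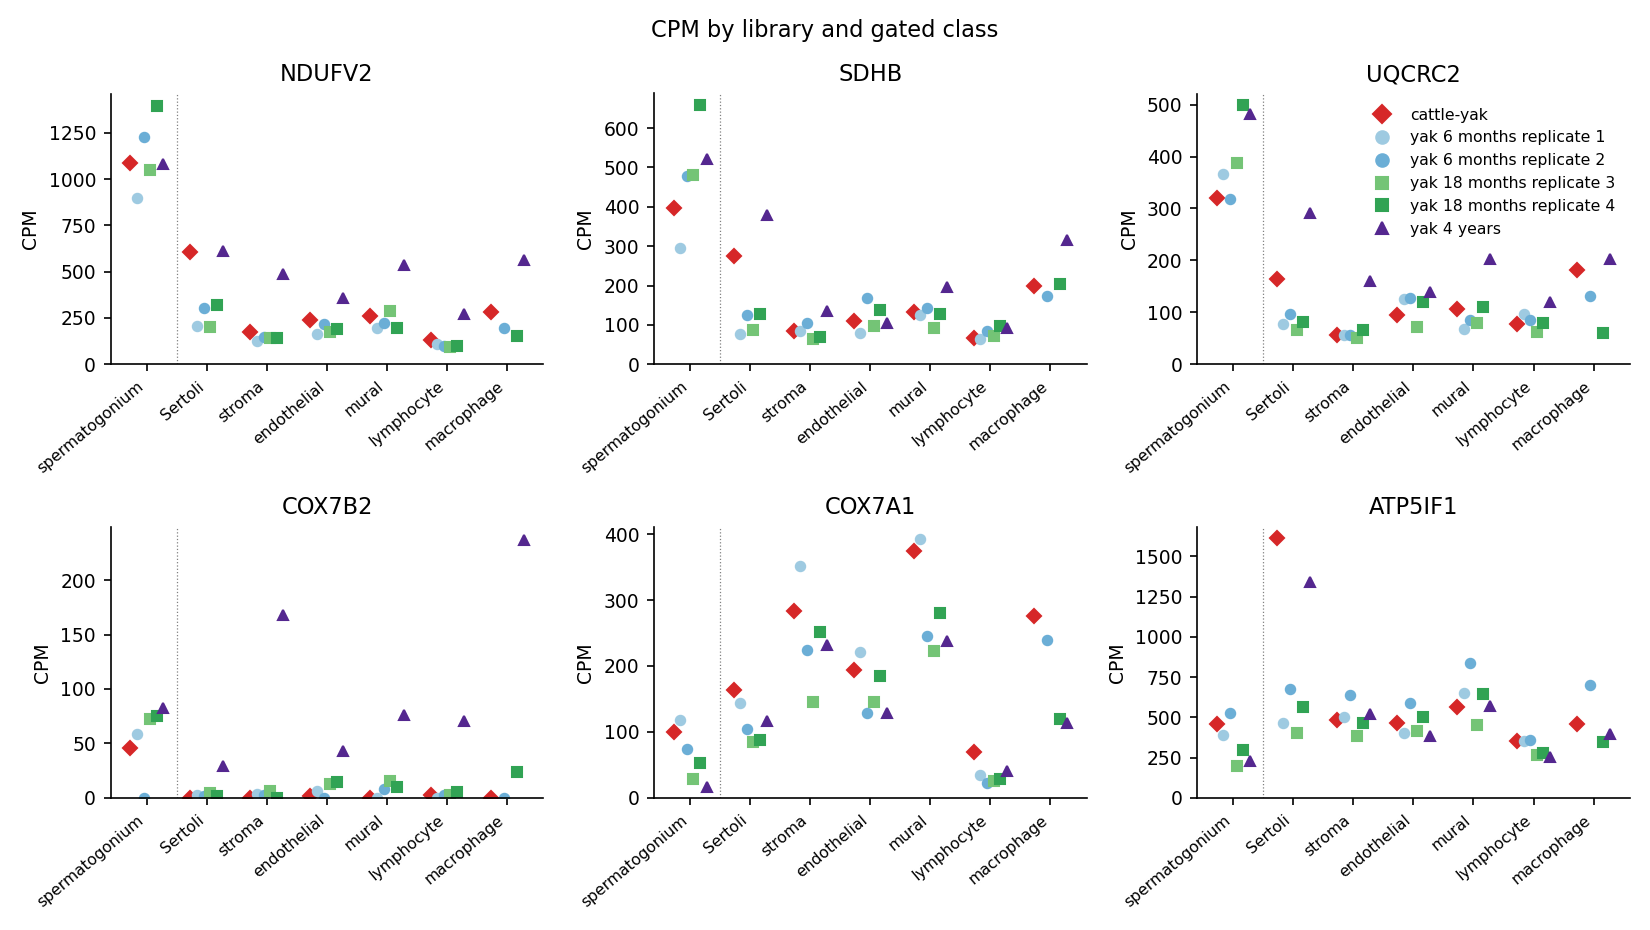
CPM (vertical axes, linear, starting at 0) of 6 members in spermatogonium-gated cells and in the 6 somatic classes (horizontal axes); each point is a library. NDUFV2, SDHB and UQCRC2 are highest in the spermatogonium gate in each library, COX7A1 is highest in mural-gated cells at 222 to 392 CPM, and the COX7B2 values above 30 CPM in somatic classes are those of the 4-year library.

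Of the 7 genes of complex V, 1 was higher and 3 were lower, and with library totals 4 were higher and 1 was lower. ATP5F1A, the alpha subunit of the catalytic head, lay at 288 to 950 CPM (median 582) in spermatogonium-gated and at 102 to 440 CPM (median 208) in somatic sums, higher in the spermatogonium gate in each library, with a log2 fold change of 0.71 ± 0.16 (SE; edgeR adjusted p = 0.000158). The beta subunit ATP5F1B and the ring subunit form ATP5MC3 were not called on the TMM scale, at -0.11 ± 0.16 and -0.01 ± 0.17, and were called higher with library totals, at 0.55 and 0.64. ATP5IF1, the inhibitor that blocks the enzyme when it would run backwards, had 459 CPM in the cattle-yak, 387 and 527 CPM at 6 months, 195 and 295 CPM at 18 months and 231 CPM at 4 years, against 252 to 1612 CPM (median 464) in somatic sums. The ranges overlapped, and the log2 fold change was -1.21 ± 0.19 (SE; edgeR adjusted p = 1.12e-06). ATP5F1D, in the central stalk, and ATP5PD, in the outer stalk, were lower at -1.04 ± 0.27 and -0.67 ± 0.18 on the TMM scale, and at -0.4 and 0 with library totals, where neither was called. COX7A1 and ATP5IF1 were the 2 members called lower under both scalings.

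Other gene lists were read in the same fit. Over all genes tested in it, 29.2% were higher and 23.5% lower, and 47.4% and 12.6% with library totals. All 13 protein genes of the mitochondrial genome were lower in spermatogonium-gated cells, with a median log2 fold change of -1.66 on the TMM scale, and 12 of 13 were so with library totals, with a median of -1. Mitochondrial UMIs also entered the filter on cells. Of 31 tested assembly factors of the complexes, including the 6 NDUFAF genes, 14 were higher and 4 lower, and 18 and 2 with library totals. Of 14 citrate cycle genes 2 were higher and 1 lower, and 8 and 0 with library totals. Of 8 tested glycolysis genes 1 was higher and 3 lower, and 3 and 3 with library totals. Among transcription regulators of respiration 2 of 9 were higher and 0 lower, and 7 and 0 with library totals.

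A few mitochondrial and glycolytic genes outside the members also have a germ cell paralogue. Of 8 genes in this list 1 was higher and 4 lower on the TMM scale, and 1 and 2 with library totals. Over all genes the shares were 29.2% and 23.5% on the TMM scale, and 47.4% and 12.6% with library totals. SLC25A31, the testis form of the ADP/ATP carrier, was higher by 4.8 ± 0.51 on the log2 scale, while SLC25A6 and SLC25A5, somatic forms, were lower by -1.41 ± 0.37 and -0.75 ± 0.27 (edgeR adjusted p = 1.11e-10, 0.0014 and 0.0192). SLC25A4, another somatic form, was at -0.6 ± 0.3 and was not called (edgeR adjusted p = 0.0848). PGK1 and PDHA1, which are X-linked in humans and mice, had log2 fold changes of -2.85 ± 0.5 and -2.72 ± 0.61 (edgeR adjusted p = 5e-06 and 0.000186).

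Spermatocyte-gated cells were compared with spermatogonium-gated cells in the same fit. Of 44 tested members 1 was higher and 1 lower, against 3.35% of all genes called, 2.87% higher and 0.484% lower. NDUFA6, an accessory subunit of complex I of the LYR family, had 597 CPM in the cattle-yak, 158 and 237 CPM at 18 months and 2103 CPM at 4 years in spermatocyte-gated cells. In spermatogonium-gated cells of the same libraries it had 191, 143 and 256, and 384 CPM. Both mature libraries were higher in the spermatocyte gate, while of the 18-month libraries replicate 3 was slightly higher there and replicate 4 lower. The log2 fold change was 1.18 ± 0.33 (SE; edgeR adjusted p = 0.0364), and it was not called without the 4-year library (0.46, edgeR adjusted p = 0.582). COX7A1 was lower at -1.13 ± 0.32 (SE, log2, edgeR adjusted p = 0.0414), and this call was kept in 5 of 14 alternatives. Over all 14, which include DESeq2, log2 fold changes ran from -1.48 to -0.58. The adjusted p of edgeR or DESeq2 ran from 0.00673 to 0.542. COX7B2 had 323 CPM in the cattle-yak, 79.5 and 90.8 CPM at 18 months and 639 CPM at 4 years, with a log2 fold change of 1.59 ± 0.59 that was not called (edgeR adjusted p = 0.13).

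Without the 18-month spermatocyte-gated sums, a choice made after their markers were seen, 4 members were higher and 4 lower, against 12.9% and 10.6% of all genes. NDUFA6 then had a log2 fold change of 1.9 ± 0.35 and COX7B2 of 2.77 ± 0.7 (edgeR adjusted p = 0.000103 and 0.00309), followed by the assembly factor NDUFAF3 at 1.32 and UQCR10 at 1.01. COX8A was lower at -2.9 ± 0.6, COX7A1 at -1.48, NDUFA12 at -0.97 and ATP5MC3 at -0.92. The COX8A fold rests on few counts. In the cattle-yak it had 2 UMIs in spermatocyte-gated and 1 in spermatogonium-gated cells (5.82 and 7.65 CPM). At 4 years it had 2 and 10 UMIs in that order (0.659 and 14.8 CPM). Only the cattle-yak and the 4-year yak provide spermatocytes in that fit.

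In the 4-year library the stages could be followed to spermatid-gated cells, as values of 1 library with no replicate check. NDUFA6 had 384 CPM in spermatogonium-gated, 2103 CPM in spermatocyte-gated and 2434 CPM in spermatid-gated cells, a spermatid over spermatogonium ratio of 6.33 (5.59 to 7.19, exact 95% interval). COX7B2 had 82.8, 639 and 415 CPM in that order of stages, a ratio of 5.01 (3.83 to 6.68). Both were thus at least 4-fold higher in spermatid-gated cells, and among all nuclear genes with at least 20 UMIs in the pair 26.6% were. NDUFV2 stayed high, with 1084, 1837 and 1432 CPM by stage. The spermatid gene HMGB4 had 34.0 CPM in the spermatogonium gate of this library, and free RNA was not removed from these values.

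Another 12 of the 41 members counted were at least 4-fold lower in spermatid-gated cells, against 23.7% of all genes. SDHC had 426, 203 and 16.2 CPM by stage, so the spermatid value was lower by a factor of 26.2 (19.2 to 36.6). ATP5MC3 had 432, 173 and 21.5 CPM, lower by a factor of 20.0 (15.2 to 26.9), and CYC1 had 407, 254 and 28.2 CPM, lower by a factor of 14.4 (11.2 to 18.7). These are subunits of complexes II, V and III. SDHB, the partner of SDHC in complex II, had 522, 334 and 286 CPM, lower by a factor of 1.83 (1.61 to 2.07), and UQCRC2 of complex III had 482, 501 and 410 CPM. The others past 4-fold were NDUFA12, NDUFAB1, NDUFB10, NDUFB11, NDUFS1, NDUFV1, NDUFAF6, COX7A2L and ATP5F1A. The median ratio of spermatid to spermatogonium CPM was 0.586 over members and 1.03 over all genes. Against spermatocyte-gated cells of that library, 0 of 43 members were at least 4-fold higher in spermatid-gated cells and 11 were at least 4-fold lower, with 17.0% and 19.4% of all genes. Spermatocyte-gated over spermatogonium-gated cells gave 2 of 43 members higher, NDUFA6 and COX7B2, and 0 lower, with 10.2% and 6.47% of all genes. In the cattle-yak the same pair of classes gave 1 of 33 higher, COX7B2, and 1 lower, COX7A1, with 11.5% and 3.22% of all genes. With cells of at most 10% mitochondrial UMIs, and with a stricter gate, 0 members were at least 4-fold lower in that cattle-yak pair. COX8A, left out of the count for too few UMIs, had 14.8 CPM in spermatogonium-gated, 0.659 CPM in spermatocyte-gated and 0.353 CPM in spermatid-gated cells.

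Germ cell forms of neighbouring genes differed by stage at 4 years. PDHA2, the testis form of a pyruvate dehydrogenase subunit, had 20.7, 189 and 794 CPM by stage and PGK2, the testis form of phosphoglycerate kinase, had 2.96, 78.7 and 121 CPM. SLC25A31 was highest in the spermatocyte gate, with 37.0, 88.3 and 10.2 CPM. PGK1 had 5.91, 2.31 and 0.353 CPM.

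**Figure D4:**
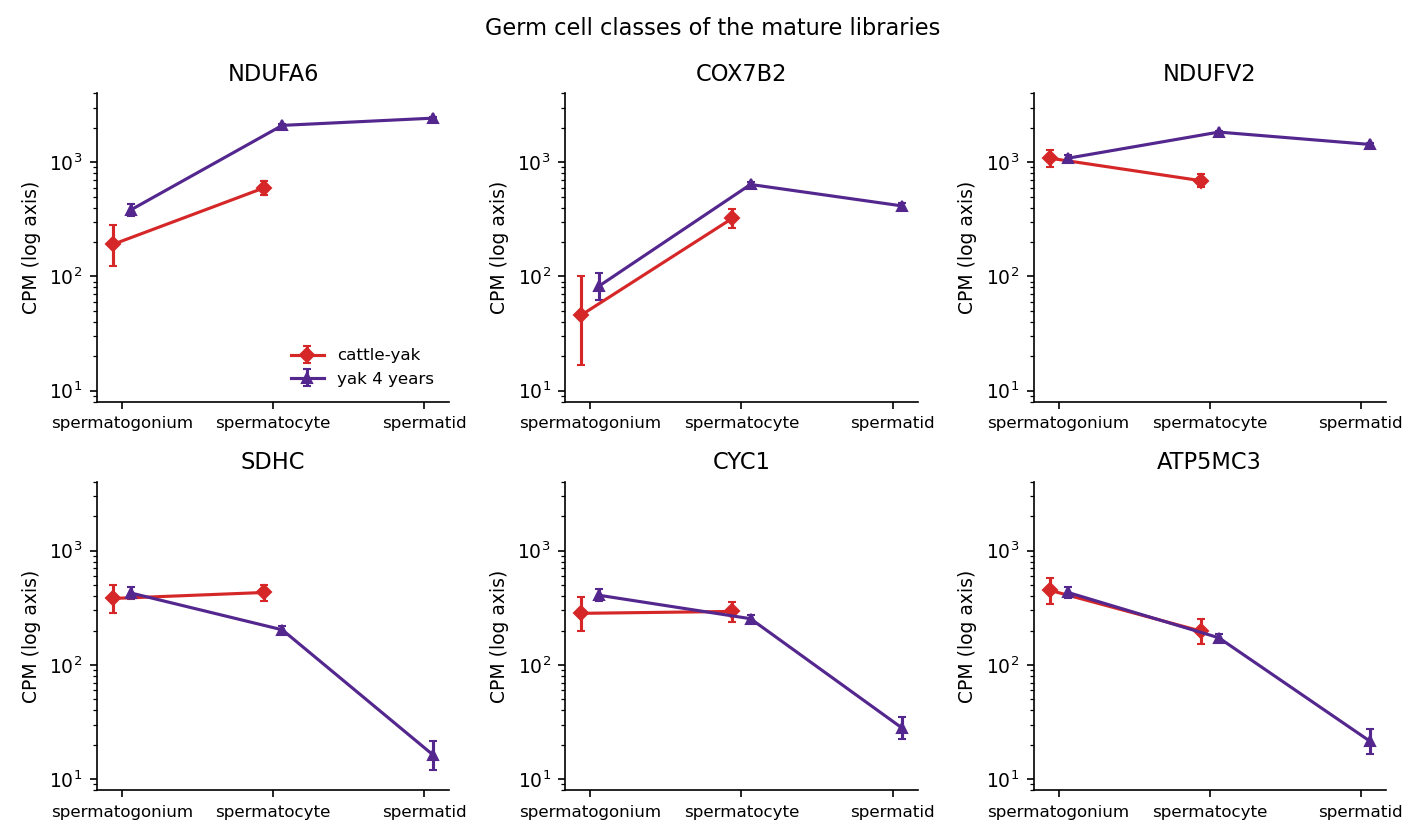
CPM on a log axis (vertical) of 6 members in spermatogonium-gated, spermatocyte-gated and spermatid-gated cells (horizontal), with exact 95% Poisson intervals, for the cattle-yak and the 4-year yak; lines join classes of 1 library. NDUFA6 and COX7B2 are higher in the later classes, and SDHC, CYC1 and ATP5MC3 stand at 16.2 to 28.2 CPM in spermatid-gated cells.

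The cattle-yak had spermatocyte-gated cells and 0 spermatid-gated cells. Its spermatocyte-gated sum was set beside that of the 4-year yak, with 1 library each and no test. NDUFA6 had 597 CPM in the cattle-yak and 2103 CPM in the yak, a ratio of 0.284 (0.246 to 0.326). NDUFV2 had 690 CPM in the cattle-yak and 1837 CPM in the yak, a ratio of 0.375 (0.328 to 0.428), and COX7B2 had 323 and 639 CPM in that order, a ratio of 0.506 (0.414 to 0.613). SDHC went the other way, with 431 CPM in the cattle-yak and 203 CPM in the yak, a ratio of 2.13 (1.76 to 2.55). Of 43 members counted 1 was at least 4-fold lower, ATP5F1D with 3 UMIs in the cattle-yak, and 0 were higher, against 11.4% and 3.93% of all genes; with cells of at most 10% mitochondrial UMIs 0 were lower. The median ratio was 0.822 over members and 1.13 over all genes. In spermatogonium-gated cells 1 of 36 members was at least 4-fold higher in the cattle-yak and 0 were lower, against 1.2% and 3.64% of all genes. That member was COX7A1, with 99.4 CPM in the cattle-yak and 16.3 CPM in the yak, a ratio of 6.11 (2.53 to 15.1) over 13 and 11 UMIs. With cells of at most 10% mitochondrial UMIs, and with a stricter gate, 0 of 34 members passed 4-fold in that pair. PDHA2 had 11.6 CPM in the cattle-yak and 189 CPM in the yak. Hybrid, animal, library and mix of spermatocyte stages cannot be told apart here.

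Transcripts of spermatids were also counted in somatic gates at 4 years. COX7B2 had 168 CPM in stroma-gated, 43.3 CPM in endothelial-gated and 70.6 CPM in lymphocyte-gated cells of that library, against 5.97, 14.5 and 5.07 CPM at most in the other 5. The spermatid gene HMGB4 was counted there too, and the ratio of COX7B2 to HMGB4 UMIs was 0.638 in endothelial-gated, 0.677 in lymphocyte-gated, 0.81 in mural-gated and 1.05 in stroma-gated cells, near the 0.725 of the whole library. It was 2.43 in spermatogonium-gated, 17.8 in spermatocyte-gated and 0.184 in spermatid-gated cells. In macrophage-gated cells it was 3.0 over 7 HMGB4 UMIs, and Sertoli-gated cells had 1 COX7B2 UMI and 3 of HMGB4. NDUFA6 likewise had 439 to 1142 CPM in the somatic gates at 4 years and 107 to 451 CPM in those of the other libraries. In somatic gates NDUFA6 over HMGB4 UMIs ran from 4.28 (lymphocyte-gated) to 14.4 (macrophage-gated), against 3.31 in the whole library. What part of the COX7B2 and NDUFA6 values of somatic gates at 4 years came from free RNA was not tested. The spermatogonium gate of that library held HMGB4 at 34.0 CPM. What part of the 82.8 CPM of COX7B2 and 384 CPM of NDUFA6 in that gate came from free RNA was not tested.

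Libraries of 18 and 6 months were compared with edgeR quasi-likelihood tests, 2 against 2, for whole libraries and for the 5 classes with at least 50 cells in each. An exact permutation test of 2 against 2 cannot go below p = 0.33. With TMM scaling 0 of 44 tested members were called in whole libraries, against 2.74% of all genes, and 2 members had an unadjusted p below 0.05. Likewise 0 members were called in Sertoli-gated (42 tested), stroma-gated (42), endothelial-gated (43), mural-gated (35) and lymphocyte-gated cells (38), with 7, 4, 1, 0 and 0 members at an unadjusted p below 0.05. Among all genes 0.87%, 0.821%, 0.345%, 0.231% and 0.0945% were called in these classes, in that order. DESeq2 called 2 members in whole libraries, COX7B2 higher and COX7A1 lower, against 6.37% of all genes higher and 3.79% lower. In Sertoli-gated cells it called 2 lower (NDUFA12 and ATP5PD) and 0 higher, against 1.99% and 0.533% of all genes, and 0 members in the other 4 classes.

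COX7B2 had 38.9 and 22.0 CPM at 18 months, against 4.8 and 4.23 CPM at 6 months, in whole libraries, without overlap (log2 fold change 1.66 ± 0.34, SE; edgeR adjusted p = 0.0583). COX7A1 had 75.2 and 116 CPM at 18 months, against 237 and 143 CPM at 6 months, also without overlap (-1.89 ± 0.61, SE; edgeR adjusted p = 0.139). NDUFV2 had 615 and 497 CPM at 18 months, against 194 and 238 CPM at 6 months, without overlap, and its log2 fold change was 0.35 ± 0.47 on the TMM scale. A lack of overlap in whole libraries was common among members, with 24 above at 18 months, 6 below and 16 overlapping. The share of all genes without overlap was not counted. With library totals 5 members were called higher and 0 lower, namely COX7B2, NDUFV2, UQCRC1, UQCRC2 and NDUFV1, against 22.0% and 0.619% of all genes. The median over members was then 0.42, and -0.61 with TMM. The median over all genes was 1.04 with library totals and -0.04 with TMM in whole libraries, 0.81 and 0.06 in Sertoli-gated cells, and 0.46 and 0.05 in stroma-gated cells. The spermatogonium gate held 227 and 177 cells at 18 months, against 40 and 28 at 6 months. In whole libraries more germ cells, more RNA per cell and a change within a class cannot be told apart. Within spermatogonium-gated cells no age test was made, for too few cells at 6 months; there COX7A1 had 28.7 and 52.5 CPM at 18 months, against 118 and 73.6 CPM at 6 months.

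Within the 5 somatic classes the member median was below 0 under both scalings. With TMM it was also below 0 on leaving out each library in turn, but its size and the calls moved. With TMM it was -0.76 in Sertoli-gated, -0.59 in stroma-gated, -0.27 in endothelial-gated and -0.21 in both mural-gated and lymphocyte-gated cells. With library totals it was -0.02, -0.26, -0.16, -0.01 and -0.08 in that order of classes. With TMM and without replicate 3 of 18 months it was -0.01 in endothelial-gated and -0.02 in mural-gated cells. The medians over all genes were then -0.02 and -0.01, so members did not stand apart from other genes there. Without replicate 4 of 18 months, 1 member was called higher and 14 lower in whole libraries, against 7.38% and 7.1% of all genes. Sertoli-gated cells then had 0 members higher and 7 lower, against 2.02% and 4.2% of all genes. Stroma-gated cells had 0 higher and 1 lower, against 0.922% and 0.768%, and mural-gated cells 0 higher and 2 lower, against 3.75% and 5.71%. In Sertoli-gated cells 5 of 13 mitochondrially encoded genes were called higher at 18 months with TMM and 13 of 13 with library totals, while 0 members were called under either. Of all 7697 genes tested in that class, 27 were called higher with TMM and 213 with library totals. Mitochondrial UMIs were 15.0% and 9.84% of the Sertoli-gated sums at 18 months, against 1.8% and 1.93% at 6 months, and the part of cell quality in this difference was not tested.

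**Figure D5:**
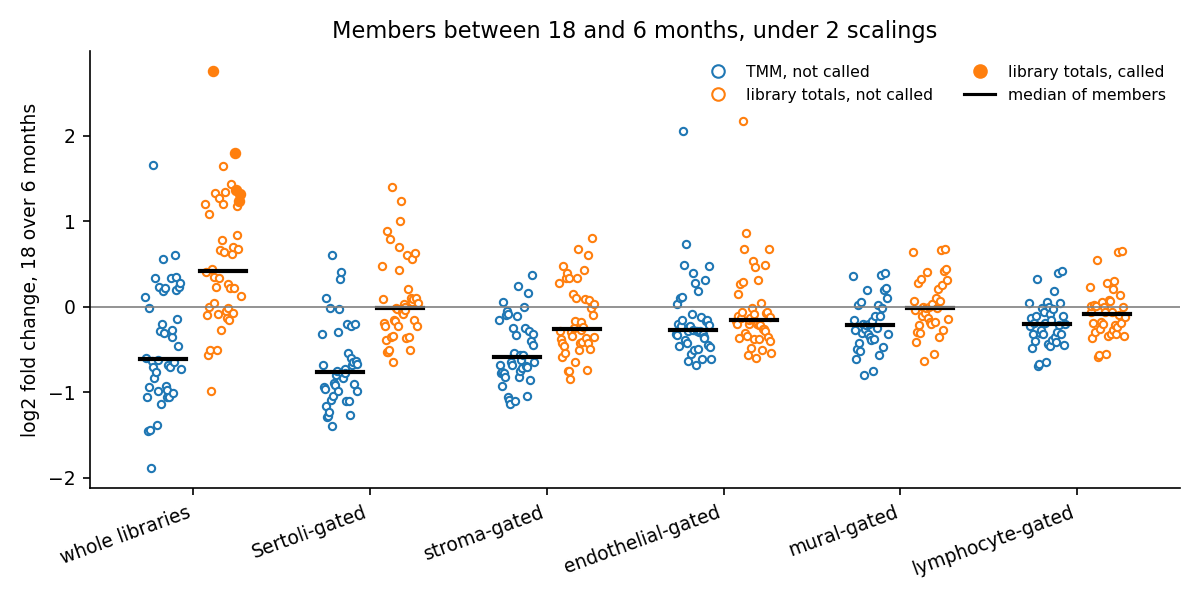
Log2 fold change of 18 over 6 months (vertical axis) for each tested member in whole libraries and 5 somatic classes (horizontal axis), with TMM at left and library totals at right in each pair; bars are medians over members. No member was called with TMM, and 5 were called in whole libraries with library totals.

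Sertoli-gated cells of the mature libraries stood apart from those of the younger ones. Of 44 members with at least 20 UMIs, 21 had CPM values in both the cattle-yak and the 4-year yak above all 4 younger libraries and 2 had values below, against 18.2% and 20.0% of all nuclear genes. ATP5IF1 had 1612 CPM in the cattle-yak, 463 and 673 CPM at 6 months, 401 and 567 CPM at 18 months and 1342 CPM at 4 years. UQCRFS1 had 774 CPM in the cattle-yak, 178 and 225 CPM at 6 months, 128 and 280 CPM at 18 months and 1050 CPM at 4 years. NDUFB1, a small membrane-arm subunit of complex I, had 1379 CPM in the cattle-yak, 486 and 468 CPM at 6 months, 296 and 611 CPM at 18 months and 1167 CPM at 4 years. These gates held 81 cells in the cattle-yak and 25 cells at 4 years, with a median of 1546 and 977 UMIs per cell, and 2997 to 5850 UMIs in the younger libraries. At 4 years this gate also held spermatid markers at a sum of 525 CPM, with 2 of the 7 markers at 0, and in the cattle-yak all 7 were at 0. With a stricter gate only the 4 younger libraries held at least 20 Sertoli-gated cells, so the mature values could not be checked with it. Maturity, library and the cells sampled cannot be told apart, and no test was made.

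Some members differed between the mature libraries and the younger ones in every somatic class that all 6 libraries held (Sertoli, stroma, endothelial, mural and lymphocyte). NDUFB11 was lower in both the cattle-yak and the 4-year yak than in all 4 younger libraries in each of the 5 classes, and NDUFB9, another membrane-arm subunit of complex I, was higher in each. Of 43 members counted these were the only ones, against 0.406% of all nuclear genes lower and 0.356% higher by the same rule. In lymphocyte-gated cells NDUFB11 had 61.9 CPM in the cattle-yak, 106 and 223 CPM at 6 months, 208 and 142 CPM at 18 months and 42.6 CPM at 4 years. Both genes were picked by this rule after values were seen.

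By the same rule within single classes, 9 members lay above and 6 below in stroma-gated cells (44 counted), against 12.1% and 12.1% of all nuclear genes. Endothelial-gated cells had 5 above and 9 below (43 counted), against 9.58% and 8.34%. Mural-gated cells had 9 above and 9 below (44 counted), against 7.34% and 6.51%, and lymphocyte-gated cells 9 above and 9 below (43 counted), against 11.3% and 6.32%. COX8A, ATP5F1D, UQCR10 and ATP5MC3 were lower in both mature libraries in each of these 4 classes, and NDUFB9 was higher. In lymphocyte-gated cells COX8A had 12.0 CPM in the cattle-yak, 41.1 and 70.4 CPM at 6 months, 122 and 42.2 CPM at 18 months and 10.1 CPM at 4 years. Age, genotype and library cannot be told apart in these values, and the mature libraries are 2 samples that differ in genotype. The genes were picked after their values were seen.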

How the data were processed

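The deposited matrices hold raw UMI counts per gene and barcode of 10x Genomics libraries, not normalized by the authors. Per the file headers Cell Ranger 5.0.0 made them, while the submitters' processing notes name version 2.1.1. No source used here states the genome build. Symbols were taken from the files, since 0 identifiers were found in the reference table. UMI counts were not divided by length, so levels of different genes are not compared. The members and lists were chosen with earlier results of these data known.

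A cell was kept with 300 or more genes and no more than 20% of its UMIs from mitochondrial genes. Doublets were removed by rank of the Scrublet score (scanpy 1.11.5), at 0.8% per 1000 barcodes, since the caller's own threshold marked 0 to 2 barcodes in 3 libraries. A marker counted in a cell when its UMIs exceeded those its share of the library's UMIs would give, and a class needed at least 2 markers of its list and a lead of 1 over every other list; this gate was set after the data were seen. Counts were summed per library and class with at least 20 cells (50 cells for age tests). CPM are counts scaled to 1000000 UMIs of a sum.

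Tests on the sums were edgeR's quasi-likelihood tests (edgeR 4.0.16, R 4.3.3), with TMM factors, filterByExpr and Benjamini-Hochberg adjustment over all genes at 0.05. A call is an adjusted p below that. SE values were derived from the test statistic. Age tests used 2 libraries against 2. Class tests used all 6 libraries with terms for class and library, and their units were sums per library and class. The script was tested on simulated data. DESeq2 1.42.0, library totals, other filters and gates, and leaving out each library were alternatives. Genes were named by rule (tissue paralogues, up to 10 called members with the largest fold per test, complex II, the member with most UMIs per complex, and the 3 members farthest from the member median each way); others, and the division of complex I into core and supernumerary subunits, were chosen after values were seen. Values of single libraries carry exact 95% intervals for counting error only, and "at least 4-fold" was read with a small constant added to both counts and at least 20 UMIs over the pair. Free RNA was not removed. Macrophage-gated and spermatogonium-gated cells had no age test, for under 50 cells in a library.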

Additional observations from a re-analysis of the deposited data

How the results depend on the processing

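The calls of spermatogonium-gated over somatic cells stayed within 1.5 times the main count of 28 under all 15 alternatives (21 to 32), but their split by direction did not, as given above for library totals. In each of the 15 alternatives ATP5F1A, ATP5IF1, COX7A1, COX7B2, NDUFA9, NDUFAB1, NDUFAF5, NDUFAF6, NDUFS1, NDUFS3, NDUFV1, NDUFV2, SDHB, SDHC, UQCRC1 and UQCRC2 were called in the same direction. The other calls were kept less often, among them NDUFAF8 in 9, NDUFA12 in 8, NDUFB10 in 6 and UQCR10 in 5 of 15. Reversed members were NDUFB10 (0.13), NDUFB7 (0.16), UQCR10 (0.01) and UQCRFS1 (0.07) with library totals, and NDUFB10 (0.08), NDUFB7 (0.11) and UQCRFS1 (0.03) with totals and mitochondrially encoded genes left out together, an alternative added after the data were seen; the change of scale alone produces the shift. Leaving out 1 library gave 22 to 29 calls. Without the 6-month spermatogonium-gated sums 25 were called, 16 higher and 9 lower. Of all 10695 genes tested then, 3205 were higher and 2335 lower.

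The 2 calls of spermatocyte-gated over spermatogonium-gated cells became 1 with library totals, 1 without mitochondrially encoded genes, 0 with cells of at most 10% mitochondrial UMIs and 0 with a stricter gate, and 8 without the 18-month spermatocyte-gated sums; leaving out 1 library gave 0 to 2. NDUFA6 was called under 8 of 14 alternatives and COX7A1 under 5.

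Between 18 and 6 months, whole libraries gave 2 calls with DESeq2, 5 with library totals, 2 with no filter on low counts, 1 with cells of at most 10% mitochondrial UMIs and 0 to 15 when 1 library was left out. With no filter, 1408 of 21263 genes were called higher and 841 lower. In cells of at most 10% mitochondrial UMIs, 622 of 12790 genes were called higher and 296 lower. Sertoli-gated cells gave 2 with DESeq2 and 0 to 7 when 1 library was left out. The range on leaving out 1 library was 0 to 1 for stroma-gated, 0 to 1 for endothelial-gated (COX7B2), 0 to 2 for mural-gated and 0 for lymphocyte-gated cells. The Sertoli test with cells of at most 10% mitochondrial UMIs was not run, for too few cells. The share of UMIs became 1.12% in spermatid-gated cells with a stricter gate, and 0.624% in lymphocyte-gated and 0.817% in Leydig-gated cells without mitochondrially encoded genes in the total. The count of members at least 4-fold apart in spermatocytes, cattle-yak over yak 4 years, became 0 with cells of at most 10% mitochondrial UMIs. Except where stated, the cause was not tested. No paired analysis was possible because the ages compared share no replicate numbers; library was a term of the class fit. Depth limits rare members: NDUFAF4, COX6A2 and NDUFA4L2 were near 0 in most sums.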
